A study of Arabidopsis thaliana with 16 samples.

Results

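Methyl viologen (MV) was compared with water in Arabidopsis thaliana seedlings of 2 lines together, wild type and a line that overexpresses the rice gene OsGRX8. The members are 8 of the 16 arrays of the series: the 4 arrays of MV-treated seedlings (2 per line) and the 4 arrays of water-treated seedlings (2 per line), taken by their labels. All seedlings were of the Columbia ecotype, were 14 days old, grew on MS medium in 16 h of light and 8 h of dark, and were then placed for 3 h in water or in 25 µM MV. Affymetrix arrays were hybridised from 500 ng of total RNA, and per the series' design text a group's 2 arrays are biological replicates. No source used here gives the promoter that drives OsGRX8 or how many transgenic lines were made. The signal of the rice gene itself was not analysed here, so the arrays do not check the overexpression.

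MV, also known as paraquat, is a herbicide that accepts electrons from photosystem I in illuminated chloroplasts and passes them to oxygen, which forms superoxide and then hydrogen peroxide. Plant cells remove these with superoxide dismutases, ascorbate peroxidases and the ascorbate-glutathione cycle. Oxidised lipids and foreign compounds are handled by reductases, glutathione S-transferases and UDP-glycosyltransferases, and damaged proteins by heat shock proteins. Glutaredoxins, the family of the overexpressed gene, reduce disulfides with electrons from glutathione.

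Signals are given on the log2 scale of the deposited values, and a difference of 1 is a doubling. Of 22746 probe sets tested, 13513 were annotated to 1 gene, and 8730 were unnamed here, so that the gene groups below hold only their named members. Array medians lay between 2.94 and 3.13, and the 2 arrays of a group correlated at 0.987 to 0.994. RCA, which encodes the activase of Rubisco in green tissue, read 11.13 to 11.32 over the 8 arrays, and PYK10, a root beta-glucosidase, read 8.73 to 9.69. AMS, a gene of the anther, read 0.89 to 1.25, and OLEO3, a seed oil body gene, read 0.96 to 1.36, both close to a bacterial control transcript that was not added (0.83 to 0.99). Signals of RCA (0.00 ± 0.09, SE) and PYK10 (-0.30 ± 0.19, adjusted p = 0.386) did not pass the test between MV and water. RCA was named after its values were seen. Of 8 measured nuclear photosynthesis genes, 2 were higher and 6 lower under MV, with a median of -0.13, and only PRK passed, as a decrease. The other measured root marker, EXPA7, stood at -0.19 ± 0.15 and did not pass. In whole seedlings, fewer cells of a type and less RNA per cell cannot be told apart.

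The added control transcripts differed with treatment. The mean of the polyadenylated bacterial transcripts, which are added to the RNA before labelling, was 3.49 and 4.40 in wild type water, 3.21 and 3.82 in OsGRX8 water, 5.77 and 5.25 in wild type MV, and 4.40 and 4.50 in OsGRX8 MV. MV exceeded water by 1.25 (exact permutation test, two-sided, p = 0.0571, n = 4 against 4). The transcripts added at hybridisation were 0.46 higher (exact permutation test, p = 0.0571, n = 4 against 4). Degradation ratios differed less, with the 3′ over 5′ difference of the actin control at 1.66 ± 0.09 under MV and 1.56 ± 0.20 in water (SD, n = 4 each). Signals below are therefore relative to the bulk of probe sets on each array, and the part of the control difference in the results was not tested.

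After 3 h of MV, 2576 of 22746 probe sets (11.3%) passed the test in a fit with the line as a factor (limma, Benjamini-Hochberg adjusted p under 0.05). Of these, 1311 (5.76%) were higher and 1265 (5.56%) were lower, while the median over all probe sets was -0.02. The large changes were mostly increases: 454 probe sets (2%) rose at least 2-fold against 170 (0.747%) that fell at least 2-fold. At 4-fold or more there were 97 increases and 5 decreases, and 28 increases reached 8-fold. Among calls, the median increase was 0.80 and the median decrease was -0.63. All 4 MV arrays lay above all 4 water arrays for 1799 probe sets (7.91%) and below them for 1903 (8.37%). The count was 1701 without wild type water replicate 1, 1693 without wild type water replicate 2, and 1701 when the spread was pooled over all 16 arrays of the series.

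**Figure D1:**
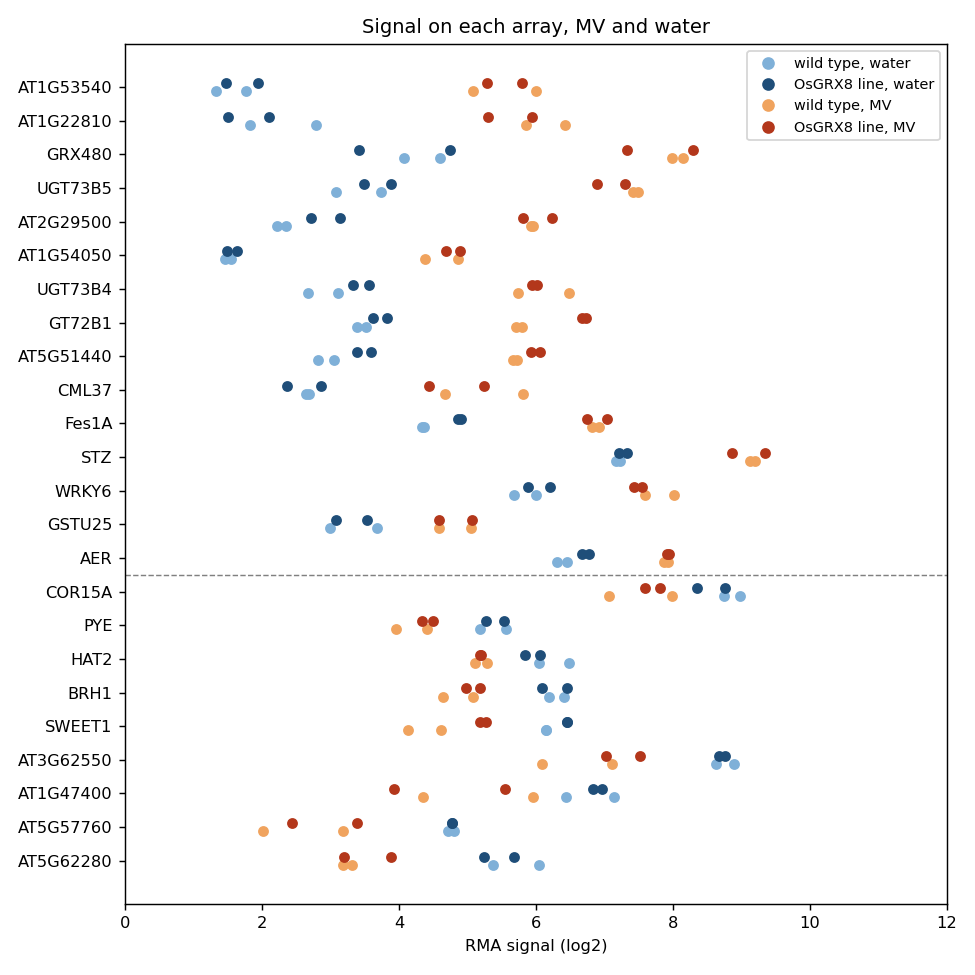
RMA signal (log2, x axis) of 24 genes (rows) on each of the 8 arrays. Points are single arrays, coloured by line and treatment. Above the dashed line all MV points lie to the right of the water points, and below it all lie to the left.

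Heat shock and chaperone genes held several of the largest increases. Of 10 measured members of the heat shock list, 8 rose, none fell and 2 did not pass, with a median of 1.47. That list held 31 loci, of which most had no named probe set. Over all probe sets 5.76% rose and 5.56% fell, with a median of -0.02, and the counts of each list below are read against these shares. Lists were drawn up from general knowledge of the Arabidopsis annotation, by locus code or, for families and organelle genes, by gene symbol or genome. Earlier results of these data were known when the lists were chosen, so their counts only describe. AT1G53540, a member of this list for which the annotation used gives a locus code only, read 1.32 and 1.77 in wild type water and 1.94 and 1.47 in OsGRX8 water. Under MV it read 6.0 and 5.07 in wild type and 5.80 and 5.28 in the OsGRX8 line. The groups were far apart in both lines, and the increase was the largest of any named gene, at 3.91 ± 0.22 (SE; 15.1-fold, adjusted p = 7.14e-06). AT2G29500 read 2.22, 2.36, 3.13 and 2.71 in water and 5.92, 5.95, 6.24 and 5.80 under MV, in the same order of lines. Its MV arrays were nearly level, and it rose by 3.37 ± 0.16 (10.4-fold, adjusted p = 2.45e-06). AT1G54050 rose by 3.17 ± 0.12 from 1.46 to 1.64 in water to 4.38 to 4.89 under MV, and AT5G37670 rose by 1.68 ± 0.17.

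Other members of the heat shock list that rose included Fes1A, Hop3 and HSA32, the last 2 of them named after their values were seen. Fes1A encodes a protein that protects cytosolic Hsp70, and read 4.34, 4.37, 4.91 and 4.86 in water and 6.82, 6.91, 6.74 and 7.04 under MV. The groups did not overlap, and the increase was 2.26 ± 0.13 (4.78-fold, adjusted p = 7.27e-06). Hop3, a co-chaperone that links Hsp70 and Hsp90, rose by 1.09 ± 0.11 to no more than 3.00 (adjusted p = 0.000214). HSA32, which is needed to keep acquired heat tolerance, rose by 0.84 ± 0.16 (adjusted p = 0.00893). ATHSP22.0, a small heat shock protein of the endoplasmic reticulum, stood at 0.31 ± 0.10 (adjusted p = 0.0765) with signals under 1.8 on every array, and AT1G52560 stood at 0.41 ± 0.14 (adjusted p = 0.0978). Other chaperone and protein folding genes were looked at after their values were seen. Hsp70-2, a cytosolic Hsp70, fell by 0.78 on the log2 scale (SE 0.14, adjusted p = 0.00684). BZIP60 and BZIP28, transcription factors of the unfolded protein response, rose by 1.08 ± 0.16 and 0.52 ± 0.09 (adjusted p = 0.0022 and 0.00671).

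AT5G51440, which was placed in a list of genes that respond to mitochondrial dysfunction, rose by 2.63 ± 0.11 (6.2-fold, adjusted p = 1.22e-06). Its water arrays read 2.82, 3.05, 3.58 and 3.39, and its MV arrays 5.72, 5.66, 6.06 and 5.92. The other 3 measured members of that list did not pass, and the list's median was 0.69. NDB2, an external NADH dehydrogenase of plant mitochondria, stood at 0.66 ± 0.21 (adjusted p = 0.0716), with MV above water on all arrays. AT2G21640 stood at 0.72 ± 0.28 and AT5G09570 at 0.44 ± 0.26.

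Genes of xenobiotic and lipid aldehyde detoxification formed a further group of strong increases. Of the 4 measured members of the detoxification list, 3 rose (5.76% over all probe sets) and 1 did not pass, with a median of 2.12. The list held 14 loci, of which most had no named probe set. UGT73B5 (AT2G15480), a UDP-glycosyltransferase, read 3.74 and 3.07 in wild type water and 3.89 and 3.49 in OsGRX8 water. It read 7.42 and 7.49 in wild type MV and 6.89 and 7.29 in OsGRX8 MV. All MV arrays were far above the water arrays in both lines, and it rose by 3.72 ± 0.19 (13.2-fold, adjusted p = 4.82e-06). The next locus code, UGT73B4 (AT2G15490), rose by 2.88 ± 0.20 from 2.67 to 3.55 in water to 5.74 to 6.48 under MV (7.34-fold, adjusted p = 2.37e-05). Closely related glycosyltransferase genes may share hybridisation, which was not tested.

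AER (AT5G16970), an alkenal reductase that acts on reactive aldehydes of oxidised lipids, read 6.31, 6.44, 6.78 and 6.66 in water and 7.92, 7.87, 7.95 and 7.92 under MV. The MV arrays were nearly equal across lines, and it rose by 1.37 ± 0.10 (2.58-fold, adjusted p = 3.77e-05). The loci with the codes before and after it rose by more: AT5G16960 by 2.89 ± 0.20 and AT5G16980 by 3.00 ± 0.20. Shared hybridisation among these neighbours was not tested. GT72B1 (AT4G01070), a glycosyltransferase known to conjugate chlorinated phenols and anilines, was named after its values were seen. It read 3.39 and 3.52 in wild type water, 3.83 and 3.62 in OsGRX8 water, 5.71 and 5.79 in wild type MV, and 6.72 and 6.67 in OsGRX8 MV. The rise of 2.64 ± 0.14 (adjusted p = 6.44e-06) was 2.3 in wild type and 2.97 in the OsGRX8 line, a difference of 0.68 ± 0.19 that did not pass over all probe sets (adjusted p = 0.994).

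Most members of the larger enzyme families did not pass. Of 47 measured UDP-glycosyltransferases, 8 rose, 5 fell and 34 did not pass, against 5.76% and 5.56% higher and lower over all probe sets, and their median was -0.02, that of all probe sets. UGT73B5 and UGT73B4 are counted here as well as in the detoxification list. Of 13 glutathione S-transferases, 1 rose, 1 fell and 11 did not pass, with a median of -0.00. The tau-class enzyme GSTU25 read 3.68, 2.99, 3.07 and 3.53 in water and 5.04, 4.59, 4.59 and 5.07 under MV. It rose by 1.5 ± 0.19 (adjusted p = 0.000914) with no overlap. GSTU27 fell by 0.74 on the log2 scale (adjusted p = 0.0076), and did not pass with the spread of all 16 arrays (adjusted p = 0.0691). GSTU26 stood at 1.12 ± 0.45 (adjusted p = 0.156). Its MV arrays read 5.82 and 6.21 in replicate 1 of the lines and 4.47 and 3.87 in replicate 2.

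Among 5 measured glutaredoxins of Arabidopsis, GRX480 rose and the other 4 did not pass. GRX480 (AT1G28480), a CC-type glutaredoxin known to bind TGA transcription factors, read 4.6 and 4.07 in wild type water and 4.74 and 3.42 in OsGRX8 water. It read 8.14 and 7.98 in wild type MV and 7.33 and 8.30 in OsGRX8 MV. The lowest MV array was above the highest water array by more than 2 units, and the rise was 3.73 ± 0.29 (13.2-fold, adjusted p = 5.23e-05). It was 3.72 ± 0.43 in wild type and 3.73 ± 0.43 in the OsGRX8 line. GRXC2 stood at 0.03 ± 0.10, GRXC1 at -0.27 ± 0.12, ROXY1 at -0.09 ± 0.17 and ROXY2 at -0.27 ± 0.16.

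Of 6 measured enzymes of the antioxidant list, none passed, their median was -0.00, and they ranged from -0.20 to 0.31. TAPX, the thylakoid ascorbate peroxidase, stood at -0.20 ± 0.13 (adjusted p = 0.422). GR1, a glutathione reductase, read 6.16, 6.0, 6.36 and 6.24 in water and 6.65, 6.45, 6.47 and 6.43 under MV. All its MV arrays were above the water arrays, yet the difference of 0.31 ± 0.11 did not pass (adjusted p = 0.0972). ATMDAR2, a monodehydroascorbate reductase that regenerates ascorbate and was not on the list, was named after its values were seen. It read 7.36, 7.43, 7.6 and 7.74 in water and 9.17, 8.79, 9.08 and 8.63 under MV, a rise of 1.39 ± 0.14 (adjusted p = 0.000278). The list held 28 loci, of which most had no named probe set, so the 6 are not all of its genes.

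**Figure D2:**
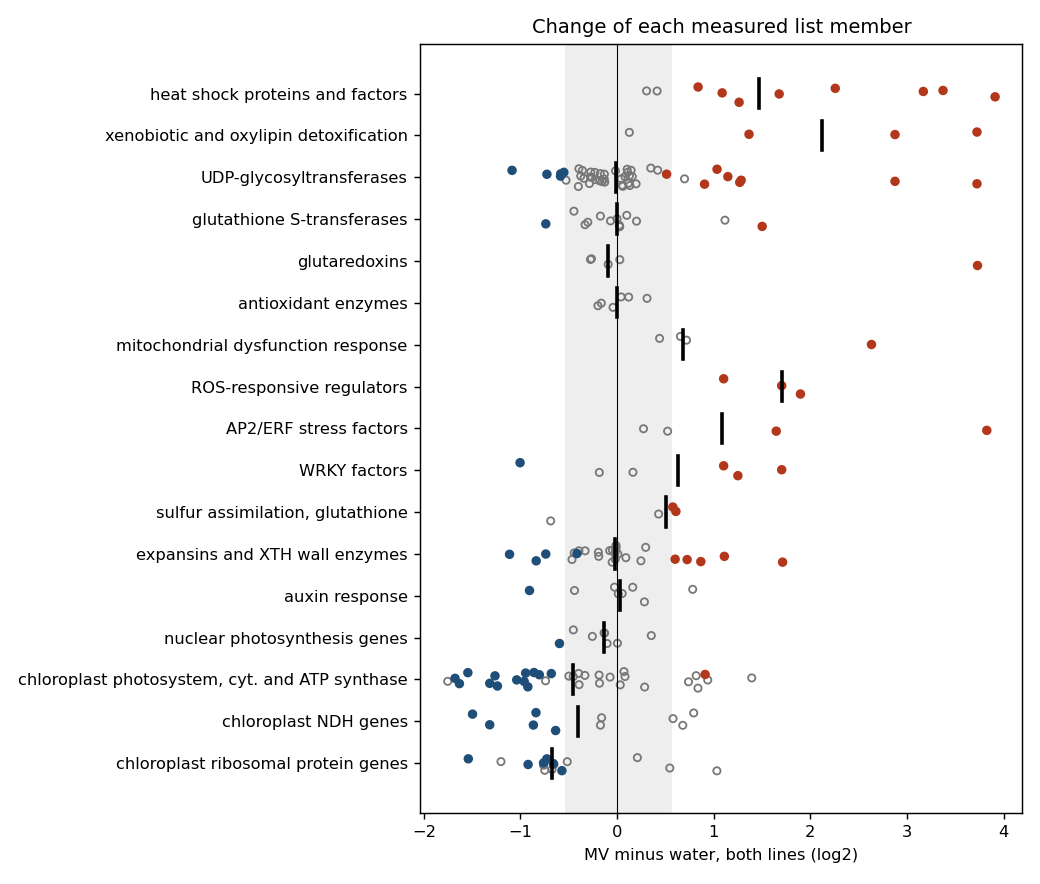
MV minus water over both lines (log2, x axis) for each measured member of 17 gene lists (rows). Filled points passed the test (red higher, blue lower), open points did not, black bars are list medians, and the grey band spans the 5th to 95th percentile of all probe sets (-0.53 to 0.56). Heat shock and detoxification members reach 3.91 and 3.72, and most chloroplast members lie left of 0.

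Several transcription factors of stress responses rose, and 1 WRKY gene fell. All 3 measured members of the list of regulators that respond to reactive oxygen rose (5.76% over all probe sets). Their median was 1.70 (-0.02 over all probe sets). The list held 26 loci, of which most had no named probe set. STZ (AT1G27730), a zinc finger repressor also called ZAT10, read 7.17, 7.22, 7.32 and 7.22 in water and 9.12, 9.20, 8.86 and 9.34 under MV. It rose by 1.90 ± 0.12 (3.73-fold, adjusted p = 1.26e-05). WRKY6, a factor of senescence and defence, rose by 1.70 ± 0.15 (adjusted p = 0.000131). WRKY53, a regulator of leaf senescence, rose by 1.1 ± 0.25 (adjusted p = 0.021), with OsGRX8 MV replicate 1 at 3.80 against 4.90 to 5.03 on the other MV arrays. Its call was lost without any one of 6 arrays: the adjusted p was 0.0698 and 0.0553 without wild type water replicates 1 and 2, 0.0525 and 0.0616 without wild type MV replicates 1 and 2, 0.0514 without OsGRX8 water replicate 1, and 0.0581 without OsGRX8 MV replicate 2. Over the 6 measured WRKY genes, 3 rose, 1 fell and 2 did not pass, against 5.76% and 5.56% over all probe sets. WRKY6 and WRKY53 are in both counts. WRKY22, a factor of immune signalling, rose by 1.25 ± 0.19, and WRKY47 fell by 1.0 on the log2 scale (adjusted p = 0.00532).

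Of 4 measured AP2/ERF stress factors, 2 rose and 2 did not pass, where 5.76% of all probe sets rose. AT1G22810 read 1.82, 2.79, 2.1 and 1.51 in water and 5.85, 6.43, 5.30 and 5.94 under MV, in the order of lines used above. The groups were over 2 units apart, and it rose by 3.83 ± 0.24 (14.2-fold, adjusted p = 1.39e-05). ORA47, an AP2/ERF factor linked to jasmonate synthesis, rose by 1.65 ± 0.14 from 2.08 to 2.82 in water to 3.66 to 4.80 under MV.

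Genes of calcium sensing and of ubiquitin ligation were looked at after their values were seen, so their counts support nothing beyond the genes named. Over all probe sets 5.76% rose and 5.56% fell. Of 7 calmodulin-like genes, 3 rose, 1 fell and 3 did not pass. CML37 read 2.69, 2.63, 2.86 and 2.36 in water and 5.81, 4.67, 4.44 and 5.25 under MV. It rose by 2.41 ± 0.26 (5.31-fold, adjusted p = 0.000355). CML38 rose by 1.86 ± 0.14 and CML42 by 1.04 ± 0.11. Of 9 plant U-box ubiquitin ligases, 4 rose and none fell, among them PUB24 (1.52 ± 0.20) and PUB23 (0.95 ± 0.20), which are known as brakes on immune responses. All 4 measured H2B histone genes rose, by 0.47 to 1.26. HTB2 read 5.83, 6.14, 5.56 and 5.96 in water and 7.2, 7.17, 6.76 and 7.39 under MV (1.26 ± 0.16, adjusted p = 0.000808), and HTB1 rose by 1.1 ± 0.14. Histone genes are close copies of one another and may share hybridisation.

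Several of the largest increases belong to genes with a locus code only. AT1G05575 read 5.11, 5.25, 5.39 and 5.23 in water and 8.28, 8.31, 7.80 and 8.55 under MV, and rose by 2.99 ± 0.15 (7.93-fold, adjusted p = 4.82e-06). AT5G05220 rose by 3.04 ± 0.25 and AT1G70420 by 2.96 ± 0.12. AT4G10270 was the least even of the 16 largest increases. Its MV arrays read 6.10 and 7.08 in replicate 1 of the lines and 4.44 and 4.03 in replicate 2, all above water arrays of 1.19 to 2.28 (3.58 ± 0.60, adjusted p = 0.00464).

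The decreases were smaller, and the 3 largest among named genes belonged to loci with a code only. AT5G62280 read 5.37 and 6.05 in wild type water, 5.24 and 5.68 in OsGRX8 water, 3.18 and 3.32 in wild type MV, and 3.19 and 3.88 in OsGRX8 MV. The groups did not overlap, and it fell by 2.19 on the log2 scale (SE 0.21, 4.57-fold lower, adjusted p = 0.000187). AT5G57760 was even in water, at 4.71 to 4.80, and spread under MV, at 2.01, 3.18, 3.39 and 2.44 (-2.01 ± 0.26). AT1G47400 changed by -1.90 ± 0.40 (adjusted p = 0.0138), AT3G62550 by -1.80 ± 0.23 and AT5G11420 by -1.73 ± 0.24.

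Named genes of transport, hormone and iron responses were among the decreases. SWEET1, a glucose transporter, read 6.15 on both wild type water arrays and 6.45 on both OsGRX8 water arrays, against 4.13 and 4.62 in wild type MV and 5.27 and 5.17 in OsGRX8 MV. It fell by 1.5 on the log2 scale (SE 0.14, adjusted p = 0.000198). Of 14 SWEET genes, a family chosen after its values were seen, 3 fell (5.56% over all probe sets), 1 rose (5.76%) and 10 did not pass. The one that rose was SWEET2 (0.78 ± 0.14), a vacuolar sugar transporter. BRH1, a RING finger gene repressed by brassinosteroids and named after its values were seen, changed by -1.32 ± 0.14 (adjusted p = 0.000313). CYP71B28, a cytochrome P450, changed by -1.20 ± 0.10, and of 19 CYP71B genes, a family chosen in the same way, 3 fell and 1 rose, against the same shares.

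Of 2 measured iron homeostasis genes, PYE fell and BHLH101 did not pass. PYE, a bHLH regulator of the response to iron shortage, read 5.18, 5.56, 5.27 and 5.53 in water and 4.41, 3.95, 4.34 and 4.49 under MV (-1.09 ± 0.14, adjusted p = 0.000955). BHLH101, a bHLH factor induced by iron shortage, was uneven under MV, at 5.43, 3.5, 3.25 and 5.36 against 5.26 to 6.46 in water (-1.43 ± 0.51, adjusted p = 0.105). AT1G47400 had the same pattern of MV arrays, at 5.95, 4.35, 3.93 and 5.55. COR15A, which encodes a chloroplast protein of cold and drought protection, read 8.75, 8.97, 8.35 and 8.76 in water and 7.06, 7.98, 7.59 and 7.81 under MV. It fell by 1.1 on the log2 scale (SE 0.20, adjusted p = 0.00745), and its neighbour in the family, COR15B, stood at -0.71 ± 0.20 with overlapping arrays, not past the test.

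The measured auxin response genes gave 1 decrease among 8, with a median of 0.03. HAT2, a homeobox gene that auxin induces, read 6.04, 6.48, 5.84 and 6.05 in water and 5.29, 5.11, 5.17 and 5.19 under MV (-0.91 ± 0.13, adjusted p = 0.00153). GH3.3, which conjugates auxin, stood at 0.78 ± 0.31 and did not pass. In the stomatal lineage list 1 of 4 members passed (11.3% over all probe sets): SPCH, the factor that starts the lineage, at -0.60 ± 0.15 (adjusted p = 0.0263) and under 3.5 on every array. Its call was lost without any one of 6 arrays: the adjusted p was 0.0715 and 0.075 without wild type water replicates 1 and 2, 0.0622 and 0.0592 without wild type MV replicates 1 and 2, 0.0633 without OsGRX8 water replicate 2, and 0.0569 without OsGRX8 MV replicate 2.

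Wall-loosening genes moved both ways. Of 27 expansin and XTH genes, 5 rose, 4 fell and 18 did not pass, with a median of -0.02, while 5.76% of all probe sets rose and 5.56% fell. The 3 measured expansin-like A genes all rose: EXLA2 by 1.71 ± 0.22, EXLA3 by 1.11 ± 0.20 and EXLA1, named after its values were seen, by 0.73 ± 0.14. EXLA3 overlapped, with 5.95 on OsGRX8 MV replicate 1 and 6.16 on wild type water replicate 2. XTH18, a xyloglucan endotransglucosylase, rose by 0.87 ± 0.14 (adjusted p = 0.00321).

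Other lists are given by counts, against 5.76% of all probe sets higher and 5.56% lower. Of 4 genes of sulfur assimilation and glutathione synthesis, 2 rose and none fell. No member passed among 2 glucosinolate genes, 3 genes of camalexin and defence, 2 class III peroxidases, 1 flavonoid gene, 1 clock gene and 1 guard cell marker. Of 3 families chosen after their values were seen, 5 of 29 serine carboxypeptidase-like genes fell and none rose, 3 of 15 IQD calmodulin-binding genes fell and 2 rose, and 2 of 15 genes of the mitochondrial genome rose and none fell.

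Genes encoded in the chloroplast genome were mostly lower under MV. Of 69 such genes with a probe set annotated to 1 gene, 25 fell, 1 rose and 43 did not pass. Over all probe sets 5.56% fell and 5.76% rose. The median of the 69 was -0.61 against -0.02 over all probe sets. Probe sets annotated to several genes were not named and are not in these counts. The groups did not overlap for 10 genes, all lower under MV, where 8.37% of all probe sets lay wholly below water. Among genes of the photosystems, the cytochrome complex and the ATP synthase, 13 of 33 fell and 1 rose. Among NDH complex genes 5 of 10 fell, and among ribosomal protein genes 6 of 15 fell. None of 4 RNA polymerase genes passed, at a median of -0.61.

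atpB, the beta subunit of the ATP synthase, read 11.11, 11.17, 10.98 and 11.07 in water and 10.49, 10.30, 9.93 and 9.75 under MV (-0.96 ± 0.12, adjusted p = 0.000727). petB, cytochrome b6, read 9.91, 10.23, 9.85 and 9.87 in water and 9.33, 9.20, 8.86 and 8.68 under MV (-0.95 ± 0.11, adjusted p = 0.000706). Both genes, and rbcL and petD below, were named after their values were seen, and in both the OsGRX8 MV arrays were the lowest. ndhA, a subunit of the NDH complex, changed by -1.5 ± 0.20 (adjusted p = 0.00127). The photosystem II genes psbH, psbE and psbF changed by -1.68 ± 0.26, -1.63 ± 0.30 and -1.54 ± 0.24. With the spread of all 16 arrays these 3 did not pass, with adjusted p = 0.089, 0.238 and 0.103. petD, subunit IV of the cytochrome complex, was the one of the 69 that rose, at 0.91 ± 0.18 with signals under 4. psaC, an iron-sulfur subunit of photosystem I, stood at 1.39 ± 0.44 (adjusted p = 0.0729), with 5.89 and 4.05 in wild type MV against 1.87 to 3.05 in water. In OsGRX8 MV it read 2.48 and 2.65, within the range of the water arrays. The change was 2.29 ± 0.50 in wild type and 0.50 ± 0.50 in the OsGRX8 line. The pooled change of psaC passed under 3 alternatives, with adjusted p = 0.0478 among brighter probe sets, 0.0438 with an intensity trend and 0.041 from the means of the 4 groups.

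The chloroplast genes were lowest on the OsGRX8 MV arrays. The median over the 69 genes was 7.23 and 7.69 on the wild type water arrays and 7.16 and 6.92 on the wild type MV arrays, slightly lower without overlap. In the OsGRX8 line it was 6.84 and 6.73 in water and 5.31 and 5.49 under MV. The median change was -0.20 in wild type, where 4 genes rose and 3 fell, and -0.97 in the OsGRX8 line, where none rose and 29 fell. The OsGRX8 change lay below the wild type change for 68 of 69 genes. These genes share a genome and much of their processing, and they are not replicates. An unadjusted p under 0.05 for the difference between lines was reached by 31 of 69 and by 4.26% of all probe sets, and none passed after adjustment. rbcL, the large subunit of Rubisco, changed by -0.69 ± 0.20 in wild type and -1.78 ± 0.20 in the OsGRX8 line, a difference of -1.09 ± 0.29 (adjusted p = 0.994). The polyadenylated control transcripts given above also differed between the lines under MV, and their part in the result was not tested.

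**Figure D3:**
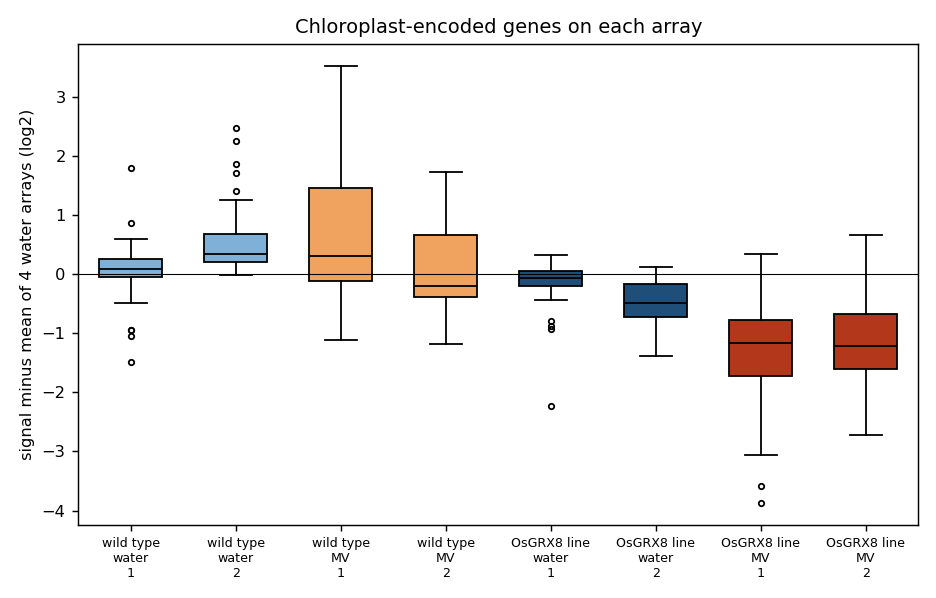
Signal of the 69 chloroplast-encoded genes on each of the 8 arrays, as the difference from each gene's mean over the 4 water arrays (log2, y axis). Boxes span the quartiles with the median as a line, whiskers reach the last point within 1.5 box lengths, and circles are genes beyond them. Both OsGRX8 MV arrays lie lowest, and wild type MV replicate 1 has the widest spread upward.

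Of 8 measured nuclear genes of photosynthesis, 1 fell and 7 did not pass, with a median of -0.13. PRK, the phosphoribulokinase of carbon fixation, read 9.38, 9.60, 9.52 and 9.66 in water and 8.69, 9.20, 9.10 and 8.76 under MV (-0.60 ± 0.14, adjusted p = 0.0188). Its adjusted p was 0.0615 without wild type water replicate 2, 0.0639 without OsGRX8 water replicate 2 and 0.0574 without OsGRX8 MV replicate 2.

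Tested within each line, from the means of the 4 groups, MV gave 1444 calls (6.35%) in wild type and 512 (2.25%) in the OsGRX8 line. In wild type 751 (3.3%) were higher and 693 (3.05%) lower, and in the OsGRX8 line 396 (1.74%) were higher and 116 (0.51%) lower. Of these, 368 increases and 72 decreases were called in both, which is 49% and 10.4% of the wild type lists and 92.9% and 62.1% of the OsGRX8 lists. All 2576 pooled calls had the same sign in both lines, which the pooled test favours, and 1892 had the larger absolute change in wild type. Their median absolute change was 0.79 in wild type and 0.61 in the OsGRX8 line. The responses of the lines, which share no array, correlated across all probe sets at 0.772 (Pearson).

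A direct test of the difference between the lines' responses called 0 of 22746 probe sets (0%, limma), and 968 (4.26%) had an unadjusted p under 0.05. The smallest adjusted p was 0.994. A 95% confidence interval of this difference had a median half-width of 0.54, against 0.26 for the pooled comparison. In simulated data of this design 68% of differences of 2 and 6% of differences of 1 were recovered, so smaller differences were mostly not detectable. The median difference over all probe sets was 0.02, and it was -0.14 when each array was centred on its median. Values per line of 3 genes described above follow. AT1G53540 rose by 3.99 ± 0.32 and 3.83 ± 0.32, and UGT73B5 by 4.05 ± 0.24 and 3.40 ± 0.24, in wild type and the OsGRX8 line. SWEET1 changed by -1.78 ± 0.17 and -1.23 ± 0.17.

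**Figure D4:**
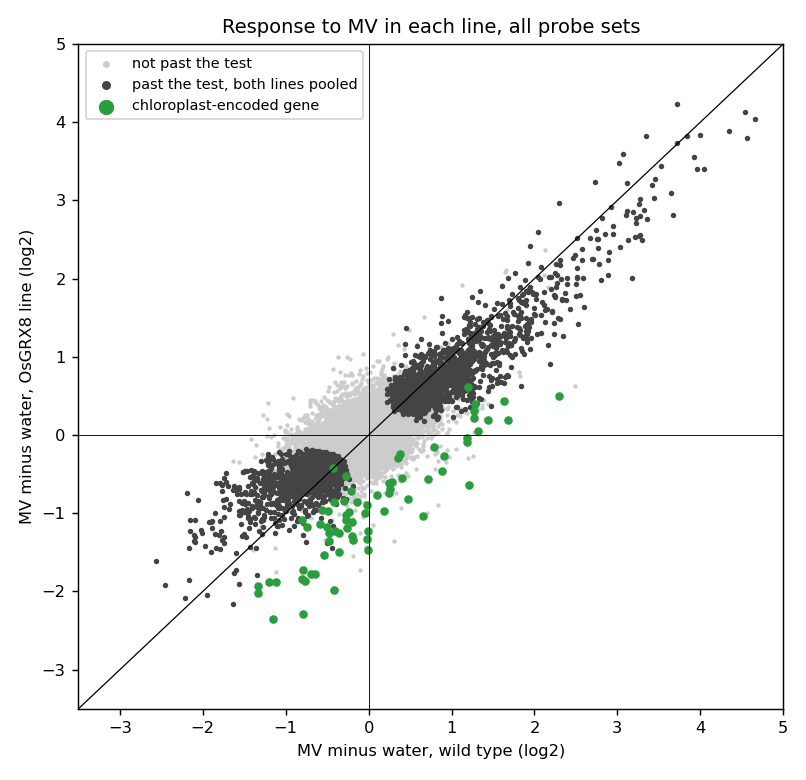
MV minus water in wild type (x axis) and in the OsGRX8 line (y axis), both log2, for each of 22746 probe sets. Dark points passed the pooled test, grey points did not, green points are the 69 chloroplast-encoded genes, and the diagonal marks equal responses. Chloroplast genes lie below the diagonal in 68 of 69 cases.

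The same study also treated both lines with 200 mM NaCl and with 100 µM IAA (auxin) for 3 h, on 4 arrays each, and the MV arrays were set directly against the NaCl arrays, which share no array with them. In this comparison 7239 probe sets (31.8%) passed, 3367 (14.8%) higher and 3872 (17%) lower under MV. Against the same water arrays as MV, NaCl gave 7432 calls (32.7%), 3814 (16.8%) higher and 3618 (15.9%) lower. IAA gave 97 (0.426%), 80 (0.352%) higher and 17 (0.0747%) lower. On IAA replicate 2 the 3′ over 5′ difference of the actin control was 6.1 in wild type and 4.43 in the OsGRX8 line, and on wild type IAA replicate 1 it was 2.57. It was 1.13 to 1.85 on the water, MV and NaCl arrays. Without both IAA replicate 2 arrays, a choice made after seeing the data, IAA gave 120 calls, and the part of this control in the IAA values was not tested. Several detoxification and heat shock genes were higher under MV than under NaCl. UGT73B5 stood at 0.18 under NaCl against 3.72 under MV, and MV exceeded NaCl by 3.55 (adjusted p = 4.5e-07). AT2G29500 fell under NaCl by 0.66 on the log2 scale, and MV exceeded NaCl by 4.04. AER fell under NaCl by 1.23, CML42 by 2.6 and EXLA3 by 1.92, all of which rose under MV. XTH18 showed the widest gap of the named genes, at -4.04 under NaCl and 0.87 under MV.

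Other genes rose under both. GRX480 rose by 2.65 under NaCl, and MV exceeded NaCl by 1.08 (adjusted p = 0.0029). AT1G22810 rose by 2.38 under NaCl against 3.83 under MV. ORA47 rose by 5.57 under NaCl, and its level under MV was lower by 3.92 (-3.92 for MV minus NaCl, adjusted p = 7.8e-07). AT5G37670 rose by 1.37 under NaCl, and the difference from MV did not pass (0.30, adjusted p = 0.2). Among the decreases, SWEET1 also fell under NaCl, by 1.3, and AT5G57760 by 1.86. AT3G62550 rose by 0.99 and HAT2 by 2.64 under NaCl, opposite to MV. The heat shock list had a median of -0.23 under NaCl against 1.47 under MV, and the chloroplast genes had -0.15 against -0.61. Under IAA the heat shock median was 0.20, and 0.16 without both replicate 2 arrays. The chloroplast median under IAA was -0.08, and 0.05 without them.

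**Figure D5:**
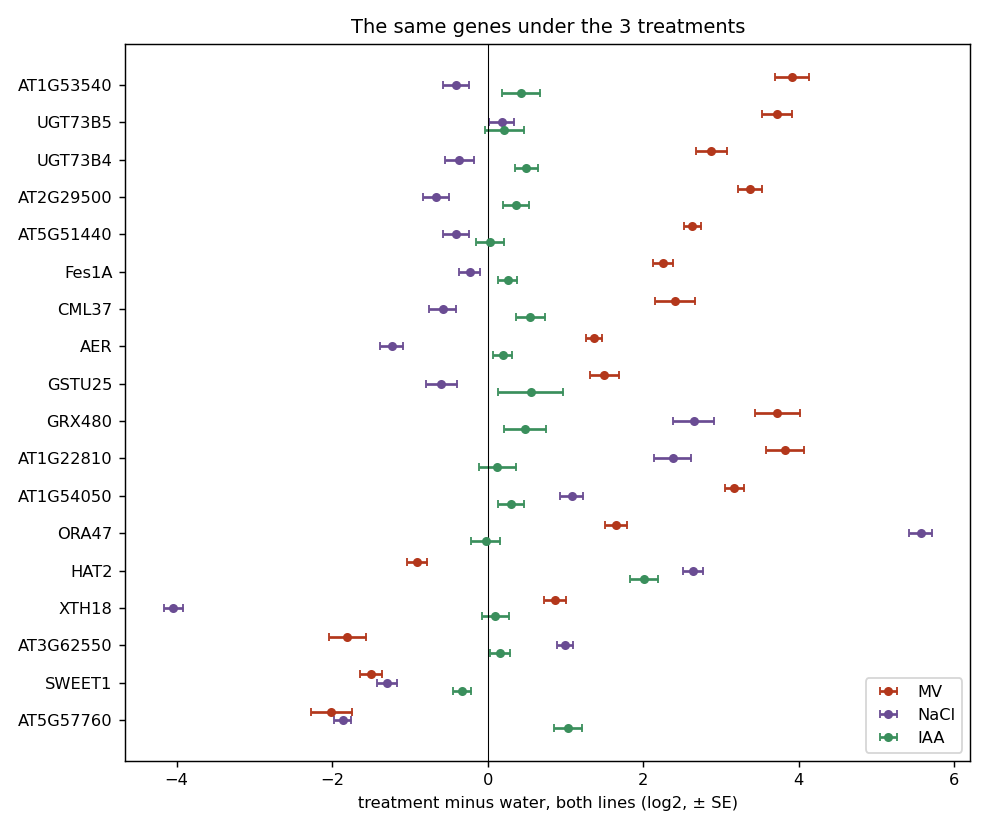
Treatment minus water over both lines (log2, x axis) for 18 genes (rows) under MV (red), NaCl (purple) and IAA (green). Points are fitted differences and bars are ± SE, and all 3 share the same 4 water arrays. IAA values include both replicate 2 arrays with the high actin difference. UGT73B5 and AT2G29500 stand apart under MV, while GRX480 and ORA47 rose under NaCl as well.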

How the data were processed

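Per the submitters' processing notes, the authors made the deposited values with RMA, which corrects background, quantile-normalizes arrays and summarises probes by median polish, and the values are on the log2 scale. No source used here names a version or software. The log2 base was checked against bacterial transcripts added at 1.5, 5, 25 and 100 pM, whose slopes were 0.873 to 0.996 on the 8 arrays. Of 22810 probe sets, 64 controls were left out of the tests. Names came from the platform annotation; 503 probe sets with several genes were not named, and the probe set with the highest mean stood for a gene with several. Of 13356 genes named, 11799 carry a locus code only.

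For each probe set a linear model with line and treatment was fitted to the 8 arrays by limma (version 3.58.1, R 4.3.3, functions lmFit and eBayes, 5 residual and 4.80 prior degrees of freedom), two-sided, with Benjamini-Hochberg adjustment over 22746 probe sets and a threshold of 0.05. Values per line and the difference between lines came from the means of the 4 groups, and MV against NaCl from the same model on the 8 arrays of MV and NaCl. Responses to NaCl and IAA were fitted likewise. The number of arrays limits the precision. Same-numbered arrays of the 4 groups had correlated deviations of 0.01 to 0.19, so the numbers were not treated as pairs.

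The members and lists were chosen with earlier results of these data known, so the lists are described by counts and, for most, medians, to be read against all probe sets (5.76% higher, 5.56% lower, median -0.02). The rule for named genes took, among probe sets of exactly 1 gene, the 16 largest increases and decreases past the threshold without overlap, for each list the 5 members past the threshold with the largest change and 3 others, the 5 smallest p-values of the difference between lines, and every glutaredoxin. The text names a subset. Another 14 genes were named after their values were seen: GT72B1, ATMDAR2, Hop3, HSA32, Hsp70-2, BZIP60, BZIP28, EXLA1, RCA, BRH1, petB, petD, atpB and rbcL. The calmodulin-like, U-box, H2B, SWEET, CYP71B, serine carboxypeptidase-like, IQD and mitochondrial lists were added after the values were seen. On simulated data with 200 changed probe sets of 22746, the pooled fit found 26% of those changed by 0.5 (log2), 84% at 1 and 96% at 2, with 11 false calls. The alternatives tried were quantile normalization once more, centring arrays on their medians, keeping the brightest 60%, an intensity trend, array weights, all 16 arrays, a replicate block, removal of cross-hybridization suffixes, a 2-fold minimum and each array left out.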

Additional observations from a re-analysis of the deposited data

Results flagged for a closer look

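In 10 of 172 groups of 4 arrays tested over the 86 named genes, 1 array stood apart from the other 3 by Dixon's criterion, and chance gives about 1 in 20 groups. Under MV these were AT5G16980 on wild type replicate 2 (high, 6.32), EXLA3 on OsGRX8 replicate 1 (low, 5.95) and WRKY53 on OsGRX8 replicate 1 (low, 3.80). In water, wild type replicate 2 was high for petD (2.66) and petB (10.2) and low for NDB2 (4.50). SWEET2 was high on wild type replicate 1 (5.82), AT5G37670 high on OsGRX8 replicate 1 (2.68), and CML38 (5.53) and ndhA (7.05) low on OsGRX8 replicate 2.

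EXPA7, a root hair expansin, was lower on both wild type MV arrays (1.63 and 1.29 against 2.07 and 1.92 in water) and higher on both OsGRX8 MV arrays (2.25 and 2.3 against 2.04 and 2.2). The lines' responses differed by 0.69 ± 0.22, which did not pass in the test of that difference over all probe sets (adjusted p = 0.994, limma).

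Among probe sets outside the comparisons, the polyadenylated control transcripts were higher by 1.25 on the MV arrays than on the water arrays, and the hybridisation controls by 0.46. Their part in the results was not tested.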

How the results depend on the processing

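The count of 2576 calls for MV against water was 1701 with the spread of all 16 arrays and 624 with a 2-fold minimum, and 1693 to 2764 when each array was left out in turn. Other alternatives gave 2432 to 2782. With the replicate number as a block, 2736 probe sets passed. The deviations of same-numbered arrays correlated weakly, at 0.01 to 0.19 and all positive, and a shared effect of the number was not tested further. The block gave 0 calls for the difference between lines and 7229 for MV against NaCl. MV against NaCl gave 7239 calls, 2691 with a 2-fold minimum and 6260 to 6990 with each array left out. The difference between lines had 0 calls under every alternative run, with 501 to 1620 at an unadjusted p under 0.05.

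Of 65 named genes past the test, none changed sign. The call was kept by 58 under every alternative that gave a value, apart from the 2-fold minimum. That minimum was not applied gene by gene, and calls with smaller changes, such as HAT2, atpB, petB and XTH18, fall short of it. Among named genes not past the test, AMS, GRXC2, RCA and ROXY1 changed sign in some leave-one-out fits, to at most 0.03 from 0. Outside the leave-one-out fits and the 2-fold minimum, 4 called genes lost the call, all with 16 arrays: GSTU27, psbE, psbF and psbH. COR15B passed under 8 alternatives. COR15B, GSTU26 and AT2G21640 passed with the block (adjusted p = 0.0239, 0.0416 and 0.0345). With an intensity trend psaC, NDB2, AT1G52560 and COR15B passed (0.0438, 0.0477, 0.0482 and 0.0275), and psaC also among brighter probe sets (0.0478) and from group means (0.041). Low signal limits genes near the absent control.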
